A study of Mus musculus with 16 samples.

Results

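Cd163, C1qa, C1qb, C1qc, Mrc1, Adgre1 and Cd68 are 7 genes whose products mark tissue macrophages, and they were read here in sorted early B-lineage cells. Every array probe that the scanner files or the current gene table assign to one of the 7 symbols was taken, older names included (C1qg for C1qc, Emr1 for Adgre1). This gave 8 probes of 41174 on the array, 2 of them for Adgre1. After the filter on dim probes 7 of the 8 remained, 1 for each gene, among 27522 probes kept and 23064 genes or unnamed transcripts tested. The 7 genes were picked with results of these arrays in view, so their values are given as a description and carry no p-value.

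All animals were wild-type BALB/c mice. Fetal liver Fr.B/C and fetal liver Fr.A came from 4 sorts, each of the embryos (8 on average) of 1 mouse at day 16 of gestation. Bone marrow Fr.B/C and bone marrow Fr.A came from 4 sorts, each of femur and tibia marrow pooled from 16 adult females. Each sort gave 1 sample of each fraction, so there were 4 arrays per group and 16 in all; in the Hardy scheme Fr.A holds pre-pro-B cells and Fr.B/C the pro-B cells that follow them. Each sample's amplified RNA (from 100 ng of total RNA) was hybridised against the same reference, total RNA of 6 cell lines, on a two-colour array. A pool of mice or embryos hides the spread between single animals.

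Cd163 is a scavenger receptor that takes up haemoglobin bound to haptoglobin. C1qa, C1qb and C1qc encode the 3 chains of C1q, the recognition unit of the classical complement pathway, and macrophages are a main source of it. Mrc1 is the mannose receptor, Adgre1 encodes the F4/80 antigen, and Cd68 is a lysosomal membrane glycoprotein of phagocytes. In fetal liver, F4/80-positive macrophages sit at the centre of erythroblastic islands, where they engulf the nuclei that maturing red cells expel.

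The promoter sequences of Cd163 and of the neighbouring C1qb and C1qc genes are shown because Cd163 and C1qc were the members with the largest differences between groups and moved in opposite directions between the tissues. Of the 7 genes, 5 are listed in RefSeq's promoter table (build GRCm38.p6), which gives 250 bases before and 50 after each gene's start. Capitals mark the letters GAGGAA, a core recognised by PU.1 (Spi1), or TTCCTC, the same letters on the other strand.
Cd163 (chr6:124304401-124304700, plus strand): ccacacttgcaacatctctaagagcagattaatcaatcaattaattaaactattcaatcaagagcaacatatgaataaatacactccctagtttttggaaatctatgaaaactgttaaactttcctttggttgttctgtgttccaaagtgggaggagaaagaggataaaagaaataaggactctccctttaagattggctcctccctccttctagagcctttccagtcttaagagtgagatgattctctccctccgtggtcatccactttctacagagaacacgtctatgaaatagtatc
C1qb (chr4:136886151-136886450, minus strand): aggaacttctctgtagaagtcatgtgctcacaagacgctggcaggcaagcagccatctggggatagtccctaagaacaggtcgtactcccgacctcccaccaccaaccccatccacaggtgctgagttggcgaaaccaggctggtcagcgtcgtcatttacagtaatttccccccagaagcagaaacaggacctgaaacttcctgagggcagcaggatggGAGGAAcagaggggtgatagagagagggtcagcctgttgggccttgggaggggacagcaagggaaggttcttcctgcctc
C1qc (chr4:136892865-136893164, minus strand): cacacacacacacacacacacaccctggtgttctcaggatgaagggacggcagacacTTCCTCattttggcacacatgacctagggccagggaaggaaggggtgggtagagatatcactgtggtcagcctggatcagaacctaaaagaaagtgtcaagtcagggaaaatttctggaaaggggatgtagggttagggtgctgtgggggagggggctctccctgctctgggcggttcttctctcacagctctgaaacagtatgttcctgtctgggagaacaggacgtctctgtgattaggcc
The letters occur 1 time each in the C1qb and C1qc windows, 3 times in that of Mrc1, 2 times in that of Cd68 and 0 times in that of Cd163, on either strand. Of 32851 promoter windows of the same length, 28.3% hold them at least once, so a match describes the letters and no site.

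Every level below is a log2 ratio of sample over reference, and every difference is a difference of such log2 ratios with the standard error (SE) of 1 limma model over all arrays, n = 4 arrays in each group. An offset added in the background correction compresses the differences of dim probes, and most of these probes were dim. The sample signal of the 6 members other than Cd163 lay between 6.05 (Mrc1) and 7.55 (C1qc) on the log2 intensity scale, while probes began to count as well above background at 5.79 to 6.18. The reference RNA was well above background on 0 of the 16 arrays for C1qa, on 2 for C1qc and on 4 for Adgre1. For these 3 genes the ratio therefore compares the sample with a reference near background.

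Within each group, arrays 1 and 2 formed one set and arrays 3 and 4 another: across genes, r was 0.926 to 0.981 within a set and 0.908 to 0.943 between sets. Arrays 1 and 2 of fetal liver Fr.A, at r = 0.926, were the exception, since this lay within the range between sets. The fetal liver arrays were scanned in 2 sessions of their own and the bone marrow arrays in 4 others, so tissue and scan session cannot be told apart. In fetal liver, arrays 1 and 2 of both fractions shared 1 session and arrays 3 and 4 the other. Array set and scan session are therefore the same split there. All 10 tested B-lineage marker genes were well above background on every array. In Fr.B/C over Fr.A, 7 of the 10 rose and 2 fell in fetal liver, against 9.97% and 12.7% of all genes. In bone marrow 7 rose and 1 fell, against 13.4% and 18.7% of all genes. In these bulk samples, fewer cells of a type and less RNA per cell cannot be told apart.

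Cd163 stood apart from the other 6 genes: it was high in bone marrow Fr.A alone. Its probe lies at chr6:124943144-124943203 in the array's own coordinates, whose build is not named. In fetal liver Fr.A the log2 ratios were 0.49, 0.05, 0.02 and 0.05 on arrays 1 to 4, against 2.73, 3.30, 2.87 and 2.88 in bone marrow Fr.A. In fetal liver Fr.B/C they were -0.26, -0.16, -0.29 and -0.34, against 0.16, 0.14, 0.23 and 0.20 in bone marrow Fr.B/C. The 4 bone marrow Fr.A arrays lay far above the other 12, bone marrow Fr.B/C and fetal liver Fr.A overlapped, and fetal liver Fr.B/C was the lowest.

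The Cd163 difference between fetal liver and bone marrow Fr.A was -2.79 ± 0.12 (SE), which is 6.93-fold lower in fetal liver. Within bone marrow, the difference of Fr.B/C over Fr.A was -2.76 ± 0.12, or 6.80-fold lower in Fr.B/C. The other 2 differences were small on this scale: -0.44 ± 0.12 for fetal liver over bone marrow in Fr.B/C, and -0.41 ± 0.12 for Fr.B/C over Fr.A in fetal liver. The groups did not overlap in any of the 4 comparisons. In fetal liver Fr.B/C the probe was well above background on only 1 of 4 arrays.

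The step from Fr.A to Fr.B/C differed between tissues for Cd163 by 2.35 ± 0.17, with the fetal liver step (-0.41) smaller than the bone marrow step (-2.76). With processed signals the difference was 1.79, and in the authors' deposited table it was 2.41. Fetal liver Fr.A was itself near background, so a fall as large as that of bone marrow could not have been measured in fetal liver. Same-numbered samples were taken as 1 sort, and the Fr.B/C minus Fr.A difference was -0.74, -0.21, -0.32 and -0.39 in the 4 fetal liver sorts and -2.57, -3.16, -2.64 and -2.69 in the 4 bone marrow sorts. Within scan sessions it was -0.47 and -0.35 in fetal liver and -2.87, -2.64 and -2.69 in bone marrow. Array 1 of fetal liver Fr.A was the highest of its group, and its sort gave the largest fetal liver step.

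The 2 small Cd163 differences depend on the background correction. For fetal liver over bone marrow in Fr.B/C the difference was -2.18 with the scanner's processed signals, -1.001 with an offset of 10, and -1.47 in the authors' deposited table. For Fr.B/C over Fr.A in fetal liver it was -2.003 with processed signals, -0.94 with an offset of 10, and -1.31 in the authors' deposited table. The large Fr.A difference was -3.98 with processed signals and -3.88 in the authors' deposited table. The direction was the same in each, and only the size moved.

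**Figure D1:**
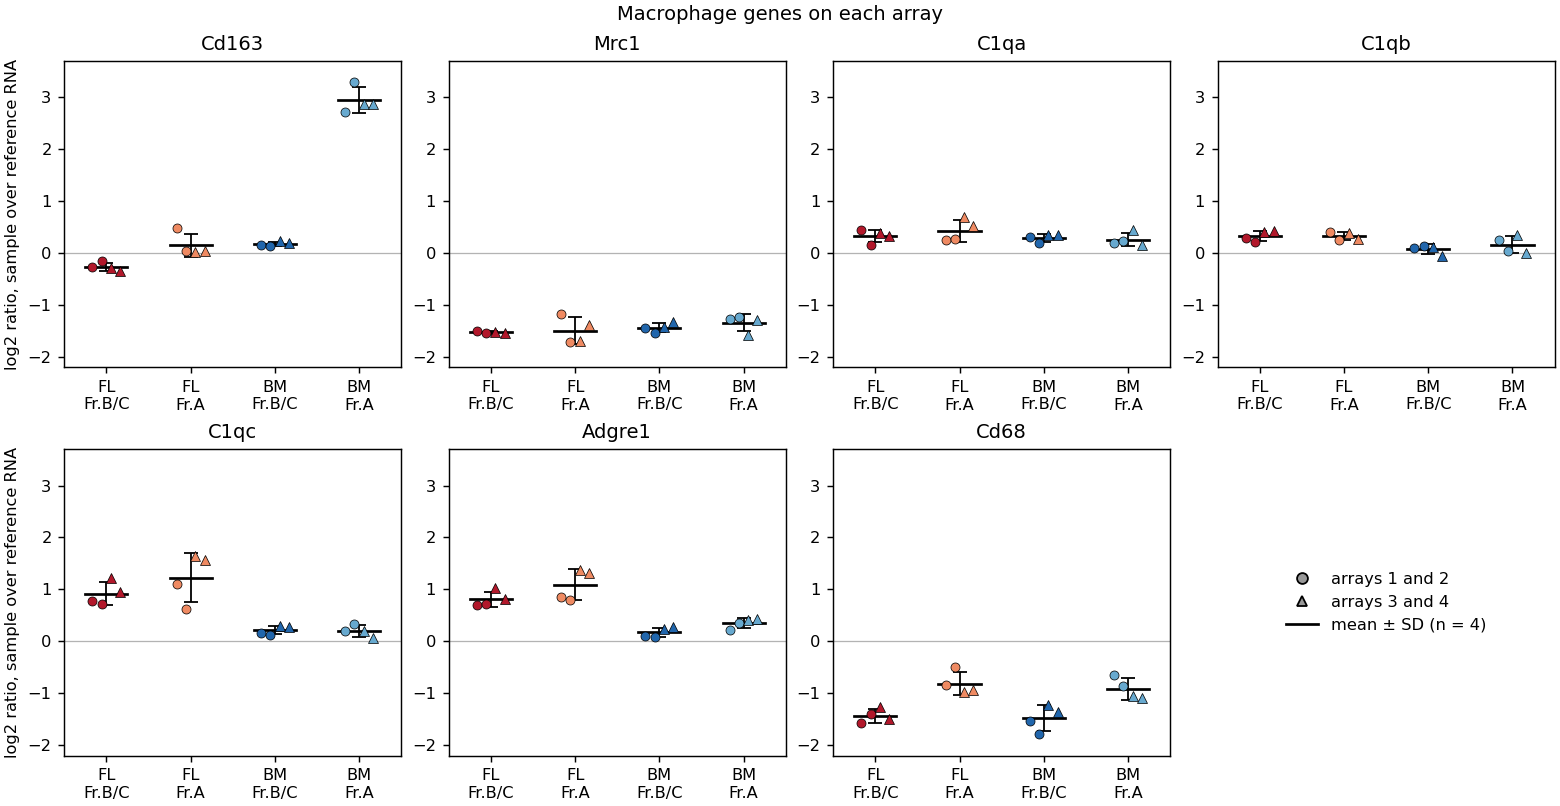
Log2 ratio of sample over reference RNA for each of the 7 macrophage genes (panels) in the 4 groups, 1 symbol per array, circles for arrays 1 and 2 and triangles for arrays 3 and 4, with bars for the mean ± SD (n = 4). Cd163 lies between 2.73 and 3.30 on the 4 bone marrow Fr.A arrays and at or under 0.49 on the other 12; C1qc and Adgre1 are higher in both fetal liver groups than in both bone marrow groups.

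**Figure D2:**
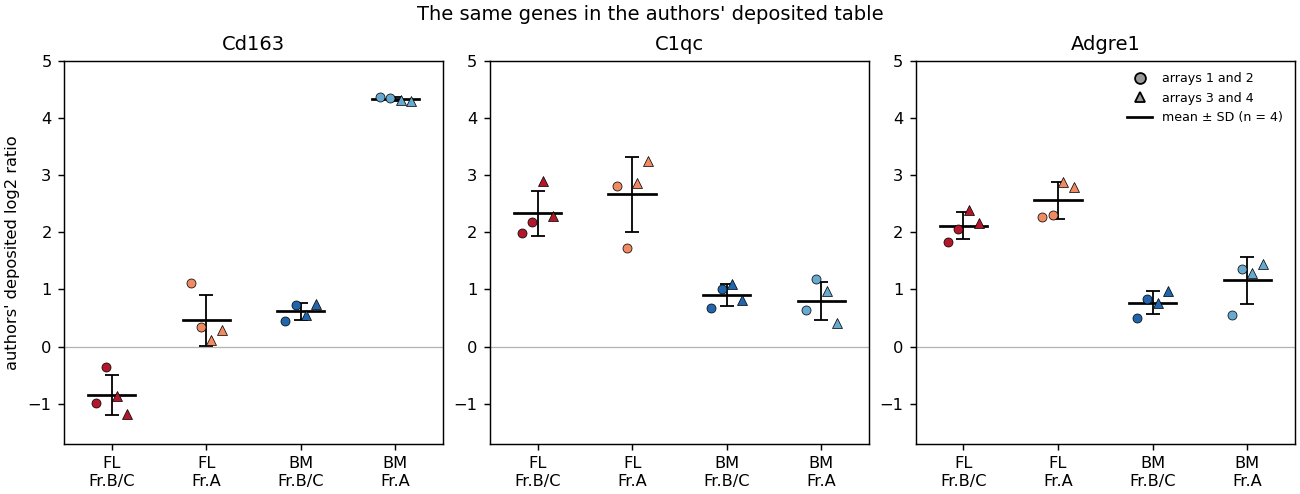
Log2 ratios from the authors' deposited table for Cd163, C1qc and Adgre1, 1 symbol per array in the 4 groups, with bars for the mean ± SD (n = 4). The same groups are high and low as in the ratios computed here, with wider differences between tissues, and with Cd163 at 4.29 to 4.37 in bone marrow Fr.A and -1.18 to -0.36 in fetal liver Fr.B/C.

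Mrc1, the other endocytic receptor among the 7, did not share the Cd163 peak in bone marrow Fr.A. Its sample signal was 6.05 to 6.51 over all 16 arrays, near background in every group, so a fall between groups could hardly be measured. Its log2 ratios in fetal liver were -1.55 to -1.50 in Fr.B/C and -1.72 to -1.18 in Fr.A, and in bone marrow -1.53 to -1.33 in Fr.B/C and -1.58 to -1.24 in Fr.A. All 4 groups overlapped in all 4 comparisons, and the differences lay between -0.16 ± 0.12 and -0.03 ± 0.12. In both Fr.B/C groups the probe was well above background on 1 of 4 arrays. The reference RNA gave the brighter signal on every array.

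The 3 C1q genes, which lie side by side on chromosome 4, differed in how far they moved between tissues. C1qc was higher in fetal liver than in bone marrow in both fractions. Its log2 ratios were 1.101, 0.61, 1.64 and 1.56 on the fetal liver Fr.A arrays, against 0.20, 0.33, 0.20 and 0.06 on those of bone marrow Fr.A. In Fr.B/C they were 0.77, 0.72, 1.22 and 0.95 in fetal liver, against 0.16, 0.13, 0.29 and 0.28 in bone marrow. Each fetal liver array lay above each bone marrow array, and within each fetal liver fraction arrays 3 and 4 lay above arrays 1 and 2.

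The C1qc difference of fetal liver over bone marrow was 1.03 ± 0.18 for Fr.A (2.04-fold) and 0.70 ± 0.18 for Fr.B/C (1.63-fold). With arrays 1 and 2 alone the Fr.A difference was 0.59, and with arrays 3 and 4 alone 1.47. With processed signals the differences were 2.21 for Fr.A and 2.10 for Fr.B/C, and in the authors' deposited table they were 1.86 for Fr.A and 1.44 for Fr.B/C. The step from Fr.A to Fr.B/C was -0.31 ± 0.18 in fetal liver and 0.02 ± 0.18 in bone marrow, with overlapping groups in both tissues. The C1qc step in fetal liver was -0.52 without fetal liver Fr.A array 2, -0.19 without fetal liver Fr.A array 3 and -0.17 without fetal liver Fr.A array 4. It was -0.11 with arrays 1 and 2 alone, -0.52 with arrays 3 and 4 alone and -0.05 with processed signals.

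C1qb, another chain of the same molecule, was 0.30, 0.21, 0.40 and 0.42 in fetal liver Fr.B/C, against 0.11, 0.15, 0.12 and -0.06 in bone marrow Fr.B/C. These groups did not overlap, and the difference was 0.25 ± 0.08, falling to 0.12 when arrays were centred on their medians in place of loess. It was 0.13 with arrays 1 and 2 alone, 0.44 with an offset of 10 and 0.57 in the authors' deposited table. In Fr.A the fetal liver arrays (0.26 to 0.41) overlapped those of bone marrow (0.01 to 0.35). The C1qb difference there was 0.17 ± 0.08, with 0.08 under median centring. It was 0.27 with an offset of 10, 0.49 with processed signals and 0.43 in the authors' deposited table. C1qa, the remaining chain, had overlapping groups in all 4 comparisons, with levels of 0.16 to 0.44 in fetal liver Fr.B/C, 0.25 to 0.69 in fetal liver Fr.A, 0.19 to 0.36 in bone marrow Fr.B/C and 0.16 to 0.44 in bone marrow Fr.A. Its difference of fetal liver over bone marrow was 0.18 ± 0.10 for Fr.A and 0.03 ± 0.10 for Fr.B/C. The C1qa Fr.A difference was 0.35 with an offset of 10, 0.74 with processed signals and 0.56 in the authors' deposited table. For Fr.B/C these values were 0.06, 0.40 and 0.10. C1qa lay near background, where differences are compressed.

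Adgre1 followed C1qc. The 2 Adgre1 probes read different stretches of the gene, and the one at chr17:55165442-55165501 gave signal. It measured 0.86, 0.79, 1.38 and 1.32 in fetal liver Fr.A, against 0.21, 0.35, 0.41 and 0.42 in bone marrow Fr.A. In Fr.B/C it measured 0.70, 0.72, 1.02 and 0.81 in fetal liver, against 0.10, 0.08, 0.23 and 0.27 in bone marrow. No fetal liver array overlapped a bone marrow array of the same fraction.

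The Adgre1 difference of fetal liver over bone marrow was 0.74 ± 0.13 for Fr.A and 0.64 ± 0.13 for Fr.B/C. With processed signals it was 1.76 for Fr.A and 1.85 for Fr.B/C, and in the authors' deposited table it was 1.40 for Fr.A and 1.35 for Fr.B/C. The Fr.B/C over Fr.A step was -0.28 ± 0.13 in fetal liver and -0.18 ± 0.13 in bone marrow, and the groups overlapped. Without fetal liver Fr.A array 3 the fetal liver step was -0.17. The other Adgre1 probe, at chr17:55092547-55092606, was well above background on 0 of the 16 arrays, and its group means lay between -0.01 and 0.04.

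Across all 16 arrays C1qc and Adgre1 had r = 0.96, and r = 0.87 after the group means were taken out. C1qc had r = 0.65 with C1qa and 0.68 with C1qb, and within the groups 0.68 with C1qa and 0.22 with C1qb. Cd163 had r = -0.53 with C1qc, -0.41 with Adgre1, 0.48 with Mrc1 and 0.44 with Cd68. Within the groups Cd163 had r = -0.05 with C1qc, -0.24 with Adgre1, 0.56 with Mrc1 and -0.00265 with Cd68. These correlations describe 16 arrays that share sorts, scan sessions and array sets. The 7 genes did not form a single macrophage pattern in these cells: Cd163 was highest in bone marrow Fr.A, while C1qc and Adgre1 were higher in fetal liver.

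Cd68, the lysosomal member, differed by fraction, while the tissues overlapped. In fetal liver it measured -1.58, -1.41, -1.26 and -1.50 in Fr.B/C, against -0.85, -0.49, -0.97 and -0.95 in Fr.A. In bone marrow it measured -1.54, -1.79, -1.22 and -1.36 in Fr.B/C, against -0.64, -0.86, -1.06 and -1.09 in Fr.A. Every Fr.B/C array lay below every Fr.A array of the same tissue, and fetal liver overlapped bone marrow in both fractions.

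The Cd68 step was -0.62 ± 0.14 in fetal liver and -0.57 ± 0.14 in bone marrow. Its size differed between array sets: arrays 1 and 2 alone gave -0.83 in fetal liver and -0.92 in bone marrow, and arrays 3 and 4 alone gave -0.42 in fetal liver and -0.21 in bone marrow. Within scan sessions the step was -0.83 and -0.42 in fetal liver, where the sessions are the same split as the array sets. It was -1.04, -0.16 and -0.27 within those of bone marrow. In the authors' deposited table the Cd68 step was -1.14 in fetal liver and -1.02 in bone marrow. Fetal liver over bone marrow gave 0.10 ± 0.14 for Fr.A and 0.04 ± 0.14 for Fr.B/C, and with arrays centred on their medians -0.11 for Fr.A and -0.23 for Fr.B/C.

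Counted over the 7 genes, fetal liver lay clear above bone marrow for 2 in Fr.A (C1qc and Adgre1; 10.7% of all genes tested) and clear below for 1 (Cd163; 15.4% of all genes). In Fr.B/C it lay above for 3 (C1qb, C1qc and Adgre1; 14.2% of all genes) and below for 1 (Cd163; 15.2%). Fr.B/C lay clear below Fr.A for 2 of the 7 (Cd163 and Cd68) in fetal liver, against 13.4% of all genes, and for the same 2 in bone marrow, against 17.1%. No member lay clear above in Fr.B/C in either tissue, against 10.6% of all genes in fetal liver and 12.4% in bone marrow. Since the genes were chosen on such values, nothing is read from these counts.

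The genes whose pattern over the 16 arrays was most like that of Cd163, among 12747 named genes, were Metrnl (r = 0.995), Il18r1 (r = 0.989), Them7, Il17re, Cxcr6 and Igfbp7 (r = 0.98 each). Il18r1, a chain of the interleukin-18 receptor, averaged -0.07 ± 0.04 in fetal liver Fr.B/C, 0.37 ± 0.06 in fetal liver Fr.A, 0.17 ± 0.07 in bone marrow Fr.B/C and 3.33 ± 0.48 in bone marrow Fr.A (SD, n = 4 each). Metrnl, a secreted protein, averaged -0.45 ± 0.09 in fetal liver Fr.B/C, -0.20 ± 0.19 in fetal liver Fr.A, -0.22 ± 0.11 in bone marrow Fr.B/C and 1.53 ± 0.13 in bone marrow Fr.A. Cxcr6, a chemokine receptor, averaged -2.80 ± 0.11 in fetal liver Fr.B/C, -2.49 ± 0.30 in fetal liver Fr.A, -2.66 ± 0.22 in bone marrow Fr.B/C and 0.21 ± 0.45 in bone marrow Fr.A. Like Cd163, each of the 6 had its highest group mean in bone marrow Fr.A and its lowest in fetal liver Fr.B/C. The 6 were chosen for likeness on these same arrays, so the shared peak follows from the choice. Mrc1 ranked 2329 and Cd68 2544 in likeness to Cd163, and C1qc ranked 10735.

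**Figure D3:**
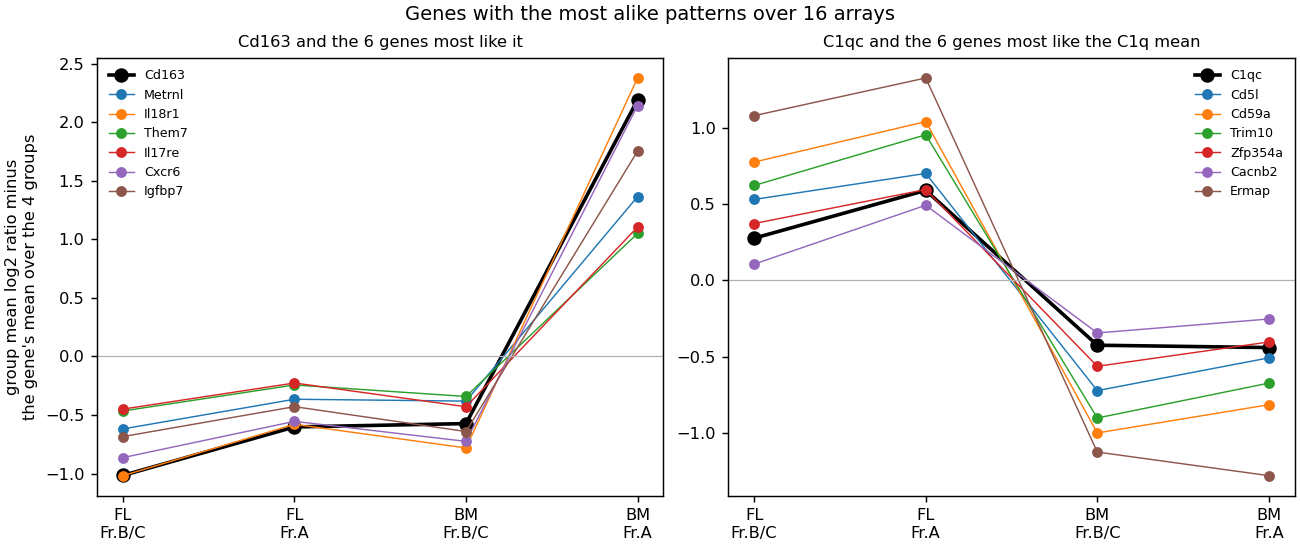
Group mean log2 ratio of each gene minus its mean over the 4 groups, for Cd163 and its 6 most alike genes (left) and for C1qc and the 6 genes most like the mean of the 3 C1q genes (right); lines join the 4 groups of a gene. The left genes peak in bone marrow Fr.A, and the right genes are above their mean in both fetal liver groups. Both patterns follow from choosing the genes by likeness on these same arrays.

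Beside the Cd163 difference, markers of some other cell types also differed between the Fr.A groups. Over all genes, 12.1% rose and 17.2% fell in fetal liver Fr.A. Of 13 tested NK and T cell markers, 8 fell in fetal liver Fr.A relative to bone marrow Fr.A, 0 rose, and Nkg7, a granule protein of cytotoxic cells, differed by -3.14 ± 0.14 (limma, adjusted p = 4.09e-10), a gene named after its values were seen. The mean log2 ratio of that list was -1.84 to -1.61 in fetal liver Fr.B/C, -1.28 to -1.04 in fetal liver Fr.A, -1.14 to -0.998 in bone marrow Fr.B/C and -0.54 to -0.41 in bone marrow Fr.A. Of the list's 13 genes, 3 stayed near background on all fetal liver Fr.B/C arrays, 2 on all of fetal liver Fr.A, 1 on all of bone marrow Fr.B/C and 0 on all of bone marrow Fr.A. Of 15 granulocyte and monocyte markers, 8 fell and 2 rose in fetal liver Fr.A, and the list's mean was 2.00 to 3.13 in fetal liver Fr.A and 3.23 to 4.31 in bone marrow Fr.A. Of 7 dendritic cell markers, 2 fell and 0 rose in fetal liver Fr.A, and the list's mean was 0.35 to 0.40 in fetal liver Fr.A and 0.58 to 0.74 in bone marrow Fr.A. Of 6 hepatocyte markers, 2 fell and 0 rose in fetal liver Fr.A, and the list's mean was 0.49 to 0.51 in fetal liver Fr.A and 0.77 to 1.07 in bone marrow Fr.A. In lists of 7 and 6 genes, 2 calls are not read as a difference from the share over all genes. The remaining lists went different ways in fetal liver Fr.A: 12 of 14 erythroid markers rose and 0 fell. Of 11 plasmacytoid dendritic cell markers, 4 rose and 3 fell, and of 7 megakaryocyte markers, 2 rose and 1 fell. Of 8 endothelium and stroma markers, 2 rose and 0 fell, and of 10 B-lineage markers, 0 rose and 2 fell. The part of these cells in the Cd163 values was not tested.

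The genes most like the mean of the 3 C1q genes, which follows C1qc (r = 0.98), were Cd5l (r = 0.96), Cd59a and Trim10 (r = 0.95 each), Zfp354a (r = 0.95), Cacnb2 (r = 0.94) and Ermap (r = 0.94). Cd5l encodes a protein secreted by macrophages, and Ermap is an erythroid membrane protein. Adgre1 came next, with r = 0.94. Ermap averaged 2.72 ± 1.08 in fetal liver Fr.B/C, 2.97 ± 1.14 in fetal liver Fr.A, 0.51 ± 0.18 in bone marrow Fr.B/C and 0.36 ± 0.23 in bone marrow Fr.A (SD, n = 4 each).

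Erythroid markers moved with C1qc and Adgre1. Of 14 tested erythroid markers, 12 rose in fetal liver Fr.A and 11 in fetal liver Fr.B/C over the same fraction of bone marrow, and 0 fell. Their mean log2 ratio was 1.14, 1.18, 2.36 and 2.33 on fetal liver Fr.B/C arrays 1 to 4 and 1.17, 1.104, 2.64 and 2.67 on those of fetal liver Fr.A. It was -0.21 to 0.08 in bone marrow Fr.B/C and 0.10 to 0.15 in bone marrow Fr.A. All 14 were above background on at least 1 array of each fetal liver group, whereas 2 were on none of the bone marrow Fr.B/C arrays. In each fetal liver fraction, arrays 3 and 4 were the higher ones for the erythroid markers, for C1qc and for Adgre1. Those arrays were also scanned in a different session from arrays 1 and 2, so sort and scan session cannot be told apart here. The part of erythroid cells or of macrophages bound to them in the C1qc and Adgre1 values was not tested.

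**Figure D4:**
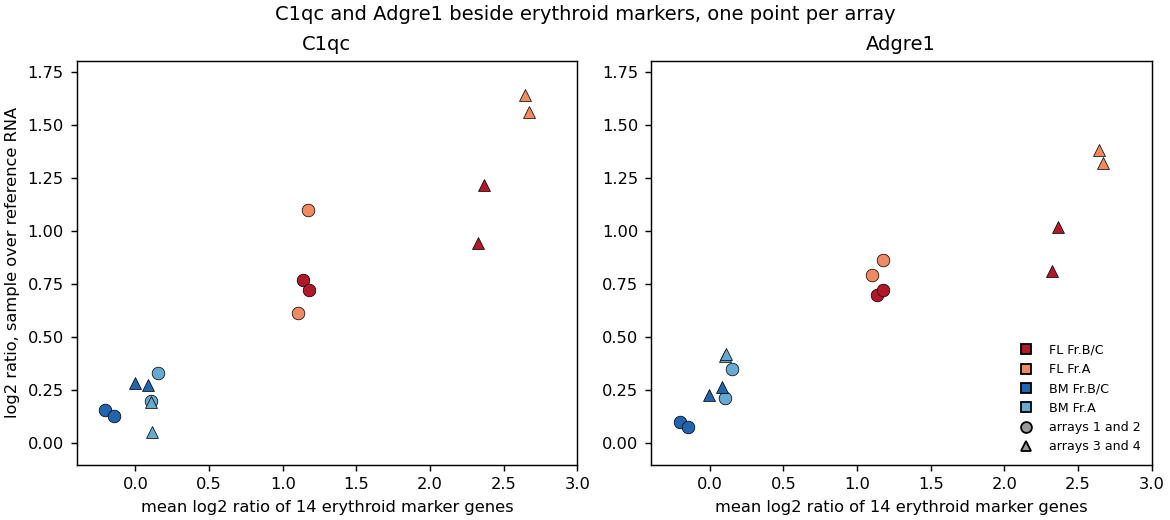
C1qc (left) and Adgre1 (right) log2 ratio of each array against the mean log2 ratio of 14 erythroid marker genes on the same array, coloured by group, with circles for arrays 1 and 2 and triangles for arrays 3 and 4. The 8 fetal liver arrays form 2 sets along the x axis, near 1.1 and above 2.3, and the 8 bone marrow arrays lie near 0. The 2 fetal liver sets were scanned in different sessions.

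Other genes of the macrophage's work were read from 7 lists. A list gene is said to have risen or fallen where its adjusted p was under 0.05 in the limma fit over all 23064 genes. The fit called 29.3% of all genes between fetal liver and bone marrow in Fr.A (12.1% higher, 17.2% lower) and 28.5% in Fr.B/C (13.8% higher, 14.7% lower). It called 22.6% between Fr.B/C and Fr.A in fetal liver (9.97% higher, 12.7% lower) and 32.2% in bone marrow (13.4% higher, 18.7% lower). The difference between the 2 steps was called for 7.37% of genes (4.42% higher, 2.95% lower). Of the genes called in fetal liver over bone marrow Fr.A, 41.4% were higher, and 22.4% with arrays centred on their medians. In Fr.B/C these shares were 48.5% and 20%, and for the fetal liver step they were 44.1% and 31.5%.

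Among 11 tested complement genes and C1q partners, 1 rose and 4 fell in fetal liver Fr.A over bone marrow Fr.A, with a median difference of -0.10 against -0.02 over all genes. In Fr.B/C 0 rose and 5 fell. C1ra, the protease that C1q activates first, differed by -1.79 ± 0.21 for Fr.A (adjusted p = 8.85e-06) and by -2.03 ± 0.21 for Fr.B/C (adjusted p = 2.49e-06), opposite in sign to C1qc. Its levels were -3.45 to -2.90 in fetal liver Fr.A and -1.66 to -1.29 in bone marrow Fr.A. Cd55, which limits complement on the cell's own surface, rose in Fr.B/C over Fr.A by 0.86 ± 0.17 in fetal liver (adjusted p = 0.00119) and by 1.05 ± 0.17 in bone marrow (adjusted p = 0.000147). Itgb2, a chain of complement receptors, differed between fetal liver and bone marrow by -0.83 ± 0.13 in Fr.A (adjusted p = 0.000142).

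Among 15 scavenger and lectin receptors and bridging proteins, 2 rose and 1 fell in fetal liver Fr.A, and 2 rose and 2 fell in fetal liver Fr.B/C, each relative to bone marrow. Cd5l rose by 1.21 ± 0.21 for Fr.A (adjusted p = 0.000507) and by 1.25 ± 0.21 for Fr.B/C (adjusted p = 0.000422), and it is also the gene outside the 7 most like the C1q mean. Clec10a, a galactose-type lectin of macrophages and dendritic cells, was likewise highest in bone marrow Fr.A: 0.36 to 0.78 in fetal liver Fr.A against 1.78 to 2.45 in bone marrow Fr.A, a difference of -1.37 ± 0.14 (adjusted p = 2.23e-06). None of the 8 Fr.B/C arrays measured it well above background, so it was at least 1.40-fold lower in fetal liver Fr.B/C than in fetal liver Fr.A and at least 3.63-fold lower in bone marrow Fr.B/C than in bone marrow Fr.A. Such a bound sets the brighter group's mean signal against a floor, the lowest signal on the array that counts as above background or that of the dim probe, whichever is higher. Cd36, a lipid scavenger receptor, was 0.99 ± 0.13 higher in fetal liver Fr.B/C (adjusted p = 5.45e-05), and Gas6, which bridges dying cells to receptor kinases, was at -2.10 ± 0.15 there (adjusted p = 3.83e-08).

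Of 15 genes of haem and iron handling, the pathway in which Cd163 acts, 2 rose and 3 fell in fetal liver Fr.A and 1 rose and 2 fell in Fr.B/C, with median differences of -0.003 for Fr.A and -0.03 for Fr.B/C. Hmox1, haem oxygenase, rose in fetal liver by 0.66 ± 0.16 for Fr.A (adjusted p = 0.0049) and by 0.81 ± 0.16 for Fr.B/C (adjusted p = 0.00121), and neither passed when arrays were centred on their medians. Hp, haptoglobin, whose complex with haemoglobin Cd163 binds, differed by -2.12 ± 0.47 for Fr.A (adjusted p = 0.00282) and by -2.21 ± 0.47 for Fr.B/C (adjusted p = 0.00228). Spic, a transcription factor of iron-recycling macrophages, differed by -0.43 ± 0.08 in Fr.A (adjusted p = 0.000758), a call lost with processed signals. It passed in neither fetal liver over bone marrow Fr.B/C nor the fetal liver step.

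Of 17 lysosomal genes, 7 fell and 2 rose in fetal liver Fr.A and 9 fell and 3 rose in fetal liver Fr.B/C, relative to bone marrow. In Fr.B/C over Fr.A, 7 fell and 0 rose in fetal liver, and 7 fell and 1 rose in bone marrow, the direction of Cd68. Ctss and Ctsl, both lysosomal cysteine proteases, went opposite ways between tissues: Ctss was at -1.63 ± 0.16 in fetal liver over bone marrow Fr.A (adjusted p = 1.37e-06), and Ctsl at 1.53 ± 0.15 (adjusted p = 2.31e-06). Both fell in Fr.B/C over Fr.A in fetal liver, with differences of -1.05 ± 0.16 for Ctss (adjusted p = 0.00013) and -0.81 ± 0.15 for Ctsl (adjusted p = 0.00113, not passing with median centring). Lgmn, another lysosomal protease, differed by -0.63 ± 0.11 in the fetal liver step (adjusted p = 0.000424) and by -0.78 ± 0.11 in that of bone marrow (adjusted p = 3.7e-05).

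Of 5 tested adhesion receptors related to Adgre1, 0 rose and 2 fell in fetal liver Fr.A, and 0 rose and 2 fell in Fr.B/C. Adgre5, which encodes the leukocyte antigen CD97, went the other way from Adgre1, with -1.21 ± 0.18 for Fr.A (adjusted p = 0.000115) and -1.21 ± 0.18 for Fr.B/C (adjusted p = 0.000128). It rose in Fr.B/C over Fr.A by 1.95 ± 0.18 in fetal liver (adjusted p = 9.18e-07) and by 1.95 ± 0.18 in bone marrow (adjusted p = 6.36e-07).

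Of 19 mononuclear phagocyte receptors and their adaptors, 13 fell and 1 rose in Fr.B/C over Fr.A in fetal liver, with a median difference of -0.997 against 0.000601 over all genes, and 9 fell and 2 rose in bone marrow, with a median of -0.33 against -0.04. Tyrobp, an adaptor of activating receptors, differed by -2.82 ± 0.21 in fetal liver (adjusted p = 8.23e-08) and by -2.21 ± 0.21 in bone marrow (adjusted p = 8.45e-07). Fcer1g, the shared Fc receptor chain, differed by -1.998 ± 0.16 in fetal liver (adjusted p = 1.35e-07) and -2.23 ± 0.16 in bone marrow (adjusted p = 2.89e-08). Itgax, the CD11c integrin chain, differed by -3.04 ± 0.10 in fetal liver (adjusted p = 2.92e-11) and was well above background on 0 of the 4 bone marrow Fr.B/C arrays, at least 5.32-fold lower than in bone marrow Fr.A. Tlr4, the endotoxin receptor, was the member that rose in both tissues, by 1.76 ± 0.15 in fetal liver (adjusted p = 2.62e-07) and 1.63 ± 0.15 in bone marrow (adjusted p = 4.51e-07). Csf1r, the receptor for macrophage colony-stimulating factor, was 1.77 ± 0.13 higher in fetal liver Fr.A than in bone marrow Fr.A (adjusted p = 8.69e-08) on its brightest probe, while its 3 probes ranged from -0.01 to 1.77. Markers of dendritic cells, which carry many of the same receptors, also differed between Fr.B/C and Fr.A. Of 11 tested plasmacytoid dendritic cell markers, 7 fell and 1 rose in Fr.B/C over Fr.A in fetal liver, and 7 fell and 1 rose in bone marrow. That list's mean log2 ratio was -0.89 to -0.55 in fetal liver Fr.B/C, 0.69 to 0.83 in fetal liver Fr.A, -0.12 to -0.00963 in bone marrow Fr.B/C and 0.65 to 0.85 in bone marrow Fr.A, and 2, 0, 1 and 0 of its genes were at background on all 4 arrays of those groups, in that order. Of 7 dendritic cell markers, 2 fell and 0 rose in Fr.B/C over Fr.A in fetal liver, and 3 fell and 0 rose in bone marrow. The mean of these 7 was -0.17 to -0.12 in fetal liver Fr.B/C, 0.35 to 0.40 in fetal liver Fr.A, -0.15 to 0.00897 in bone marrow Fr.B/C and 0.58 to 0.74 in bone marrow Fr.A. Of them, 1 gene stayed near background in fetal liver Fr.B/C and 1 in fetal liver Fr.A, against 0 in both bone marrow groups. The part of these cells in the receptor differences was not tested.

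Of 15 macrophage transcription factors, 3 rose and 4 fell in fetal liver Fr.A and 0 rose and 3 fell in fetal liver Fr.B/C. Spi1, which encodes PU.1, differed in Fr.B/C over Fr.A by -0.92 ± 0.09 in fetal liver (adjusted p = 1.34e-06) and by -0.25 ± 0.09 in bone marrow (adjusted p = 0.0397), and the bone marrow call was lost in 15 of the 34 other settings. Irf8, needed for monocytes and for early B cells, differed between fetal liver and bone marrow by -0.70 ± 0.08 for Fr.A (adjusted p = 1.26e-05) and by -1.81 ± 0.08 for Fr.B/C (adjusted p = 2.79e-10). Maf, an activator of macrophage genes, was -3.19 ± 0.14 in fetal liver over bone marrow Fr.B/C (adjusted p = 1.72e-10) on its brighter probe and -0.26 on its other probe. Cebpb differed in Fr.B/C over Fr.A by -2.12 ± 0.19 in fetal liver (adjusted p = 8.57e-07) and -2.31 ± 0.19 in bone marrow (adjusted p = 2.26e-07), with -0.36 in fetal liver and -0.59 in bone marrow on its other probe.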

How the data were processed

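The authors deposited 16 scanner files, written by Feature Extraction 8.5.1.1, whose mean and background signals are intensity values of both dyes, per the file headers. They also deposited 1 table of log2 ratios for all arrays, with array medians of -0.00731 to 0.0202 and r = 0.951 to 0.966 across genes with the ratios computed here. How the authors made it is not given in any source used here, beyond limma, which the submitters' processing notes list. It held 0 columns of samples outside the series. The sample was in Cy5 on arrays 1 and 3 and in Cy3 on arrays 2 and 4, per the labels.

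The signals were background-corrected by normexp (offset 50) and loess-normalized (limma 3.58.1, R 4.3.3), with control spots at weight 0 and flagged outlier spots left out, and turned to sample over reference. Replicate spots were averaged, and a probe stayed if well above background in the sample channel on at least 3 of 4 arrays of any group and usable on at least 12 arrays. Names came from the array's RefSeq accessions (22072 probes), other listed accessions (135) and description symbols (1097), and 17870 probes have no name here. The brightest kept probe stood for its gene. The model held 4 group means and a dye term (11 residual degrees of freedom), moderated by empirical Bayes, and p-values were adjusted after Benjamini-Hochberg over all 23064 genes and transcripts; all adjusted p-values come from this limma model.

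The median sample signal per array was 71.2 to 162, the share of probes well above background 52.9% to 68.3%, and the saturated share 0.221% to 0.624%. The number of arrays limits the precision. The labels say that each sort gave both fractions, and same numbers were taken as 1 sort. Same-numbered Fr.B/C and Fr.A arrays deviated together from their group means (r = 0.249 to 0.519). Differently numbered arrays of a set did so too, with r = 0.268 for fetal liver Fr.B/C 1 and Fr.A 2 and 0.423 for fetal liver Fr.B/C 3 and Fr.A 4. These r values therefore do not establish the pairing by number. Alternatives were sort as a random block and a replicate block, whose terms both tissues share and which replaces the dye term. Named genes were all members and probes, up to 6 genes per list with the smallest adjusted p over the 5 comparisons (the text gives a part of them), and the 6 genes most correlated with Cd163 and with the mean of C1qa, C1qb and C1qc. Marker genes served to describe the samples. The members and lists were chosen with earlier results of these data known.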

Additional observations from a re-analysis of the deposited data

Results flagged for a closer look

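Among 32 groups of 4 arrays (8 member probes in 4 groups), 2 held an array far from the other 3, where chance gives about 1 in 20. Cd163 had a log2 ratio of 0.485 on fetal liver Fr.A array 1, with the other 3 arrays at 0.02 to 0.05. Without single arrays in turn, the Cd163 difference of fetal liver over bone marrow in Fr.A lay between -2.92 and -2.67. Mrc1 had -1.58 on bone marrow Fr.A array 3, with the others at -1.28 to -1.24.

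For 12 named genes of the lists, the step from Fr.A to Fr.B/C differed between fetal liver and bone marrow in the limma interaction term, given here as the fetal liver step minus the bone marrow step. It was negative for Maf (-2.47, adjusted p = 3.28e-06), Gas6 (-1.75, adjusted p = 9.6e-05), Csf1r (-1.58, adjusted p = 8.61e-05), Id3 (-1.18, adjusted p = 0.0203), Irf8 (-1.12, adjusted p = 3.41e-05) and Cd93 (-1.03, adjusted p = 0.000745). It was also negative for Fcgr3 (-0.97, adjusted p = 0.00455), Itgax (-0.71, adjusted p = 0.00665) and Spi1 (-0.67, adjusted p = 0.00383). It was positive for Clec10a (1.20, adjusted p = 0.00133), Adgrg3 (0.75, adjusted p = 0.00504) and Cd36 (0.74, adjusted p = 0.0269). The Itgax value changed sign with processed signals and in the deposited table, and Itgax was not well above background in bone marrow Fr.B/C. Clec10a was not well above background in either Fr.B/C group, and the Cd36 call was lost in 10 other settings. Of 34 settings, the Itgax call was lost in 4, besides the 2 in which its sign turned. The call was lost in 3 settings each for Adgrg3, Id3 and Spi1 and in 2 each for Clec10a and Fcgr3. It was lost in 1 each for Cd93 and Irf8, and in 0 for Csf1r, Gas6 and Maf. On other probes of the same gene the term was as small as -0.19 for Maf, -0.32 for Cd93 and 0.35 for Adgrg3, as high as 0.06 for Csf1r, and larger for Fcgr3 (-1.55) and Irf8 (-1.41). The bone marrow step of Cd93 was -0.54 on the probe used and 0.61 on its other probe.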

How the results depend on the processing

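Of 1176 member differences recomputed under other settings, 1094 moved by less than 1 SD of the replicates and the others by more. Several settings, such as no dye term or a replicate block, leave a member's difference as it was, so this count does not measure stability. Settings that change the background correction moved more: Cd163 in fetal liver over bone marrow Fr.B/C went from -0.44 to -2.18 with processed signals. The sign turned in 42 of the 1176, all of differences no larger than 0.33 in size. For 2 of these the difference had been larger than 1 SD: with arrays 1 and 2 only, the interaction was 0.00293 for C1qa and 0.0147 for C1qc. None of the 560 values that leave out 1 array moved by more than 1 SD. Leaving out 1 of 4 arrays can hardly move a group mean that far, so this is no check of stability. The groups did not overlap for 11 of 28 member comparisons, for 11 to 13 without single arrays, and for 20 with arrays 3 and 4 only, where 2 arrays per group separate more easily. Of the 119 calls for 39 named list genes, 65 held in every setting. Calls that turned sign were Cd93 in the bone marrow step (0.0369) and Grn in the fetal liver step (0.0121) with the mean of kept probes, Fcgr3 in fetal liver over bone marrow Fr.A with arrays 3 and 4 only (-0.0641), and the Itgax interaction with processed signals (1.15) and in the deposited table (0.307).

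Genes called numbered 6758 for fetal liver over bone marrow in Fr.A, 6565 in Fr.B/C, 5219 for the fetal liver step, 7417 for the bone marrow step and 1700 for the interaction. Without single arrays they were 5600 to 6736, 5125 to 6845, 4243 to 5412, 6412 to 7666 and 1221 to 1764, and calls among the list genes 33 to 39, 24 to 35, 35 to 39, 33 to 44 and 12 to 16. Median centring gave 4311, 2790 and 4356 calls (Fr.A, fetal liver step, bone marrow step) and 450 for the interaction, and called 24 list genes against 39 in Fr.A, 26 against 45 in the bone marrow step and 5 against 14 in the interaction. It shifted the median of all genes by -0.10 in fetal liver over bone marrow Fr.B/C. Averaging arrays 1 with 2 and 3 with 4 gave 4128, 3848, 3007, 4864 and 246 calls, and 29 and 6 list genes in the bone marrow step and interaction. Arrays 3 and 4 only gave 10647 in Fr.A, 9715 in the fetal liver step and 7257 and 34 list genes in the interaction, and arrays 1 and 2 only 739 and 9 there. For the interaction, processed signals gave 1127 calls, the replicate block 2751, sort as a random block 3301, and scan session 3120 as a random and 3444 as a fixed block. Neither the replicate block, which the tissues share, nor sort as a random block moved another count by over 1.5 times. These alternatives change the samples, the scaling or the residual spread; beyond that the cause was not tested. Arrays 1 and 2 only and arrays 3 and 4 only were chosen after seeing the data. Scan session as a fixed block gives no value for fetal liver over bone marrow. Signals near background limit C1qa and Mrc1, Cd163 in all groups but bone marrow Fr.A, and C1qc and Adgre1 in bone marrow.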
